A study of Phaffia rhodozyma with 29 samples.

Results

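The comparison described here sets cyp61-, a mutant of Xanthophyllomyces dendrorhous whose CYP61 locus is interrupted, against its parental wild-type strain CBS 6938. It uses 6 of the 29 samples of the series, 3 RNA-seq libraries labelled A, B and C per strain, and all 6469 genes listed in the count tables. The wild-type libraries are the set named wild type (N) here, after the suffix of its labels. The study as a whole asks how Sre1, a factor of the SREBP family (sterol regulatory element-binding proteins), acts in this carotenoid-producing red yeast. Other strains are used below only to follow the genes of the cyp61- response. These are a strain with a FLAG-tagged Sre1, a double mutant with both SRE1 deleted and CYP61 interrupted (cyp61- sre1-), an SRE1 deletion strain (sre1-) and a second wild-type set named wild type (Ne), each with 3 libraries. All strains descend from CBS 6938. The design text gives growth to the late exponential phase in standard culture and 3 biological replicates for the wild type, the tagged strains and sre1-, and does not name cyp61- or the double mutant. The labels do not say how the locus was interrupted, whether the mutant is 1 clone, or which of the tagged strains of the study gave the tagged RNA-seq libraries.

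CYP61 is a cytochrome P450 that introduces the C-22 double bond of the side chain in ergosterol synthesis, and a cell without it cannot complete ergosterol, the main sterol of fungal membranes. In fungi, factors of the Sre1 family are held in a membrane as inactive precursors while sterols are plentiful. They are released when sterols run low, and raise transcription of sterol synthesis genes. In this yeast, carotenoids and sterols draw on the same isoprenoid precursors from the mevalonate pathway.

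Library totals were 17734121 to 18921469 counts in cyp61- and 15879183 to 17924134 counts in wild type (N), so depth was alike. A gene with at least 1 count was found for 6253 to 6262 genes in cyp61- libraries and for 6264 to 6268 in wild type (N) libraries. Of the 6469 genes, 6228 passed the filter on low counts and were tested. Of the other 241, 160 had 0 counts in all 6 libraries, and none exceeded 32 counts in any of them. The tables give a number and a contig for each gene, with no name, product or position. CYP61 and SRE1 themselves, and the genes of sterol or carotenoid synthesis, were therefore not looked up, and whether the CYP61 transcript is altered in the libraries labelled cyp61- was not checked. Below, levels are counts per 1000000 (CPM) scaled by TMM factors, which correct for differences in library composition. They are not corrected for gene length. A gene is called when its Benjamini-Hochberg adjusted p in edgeR's quasi-likelihood test, fitted on all 18 RNA-seq libraries, is under 0.05.

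Close to 1 gene in 3 differed in the mutant, with somewhat more higher than lower calls under TMM scaling. Of the 6228 genes tested, 1992 (32.0%) were called, 1047 higher (16.8%) and 945 lower (15.2%) in cyp61- than in wild type (N). Most changes were moderate. The median log2 fold change was 0.77 over the genes called higher and -0.79 over those called lower, with a median standard error of 0.20 in both sets, while over all genes tested the median was 0.02. Changes under 1.5-fold made up 267 of the higher and 228 of the lower calls, and changes over 4-fold made up 40 and 45. At least 2-fold higher were 323 genes (5.19%), and at least 2-fold lower were 293 (4.70%). Tested against a 2-fold change rather than against none (edgeR's glmTreat), 29 genes were higher (0.466%) and 17 lower (0.273%), 46 in all.

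**Figure D1:**
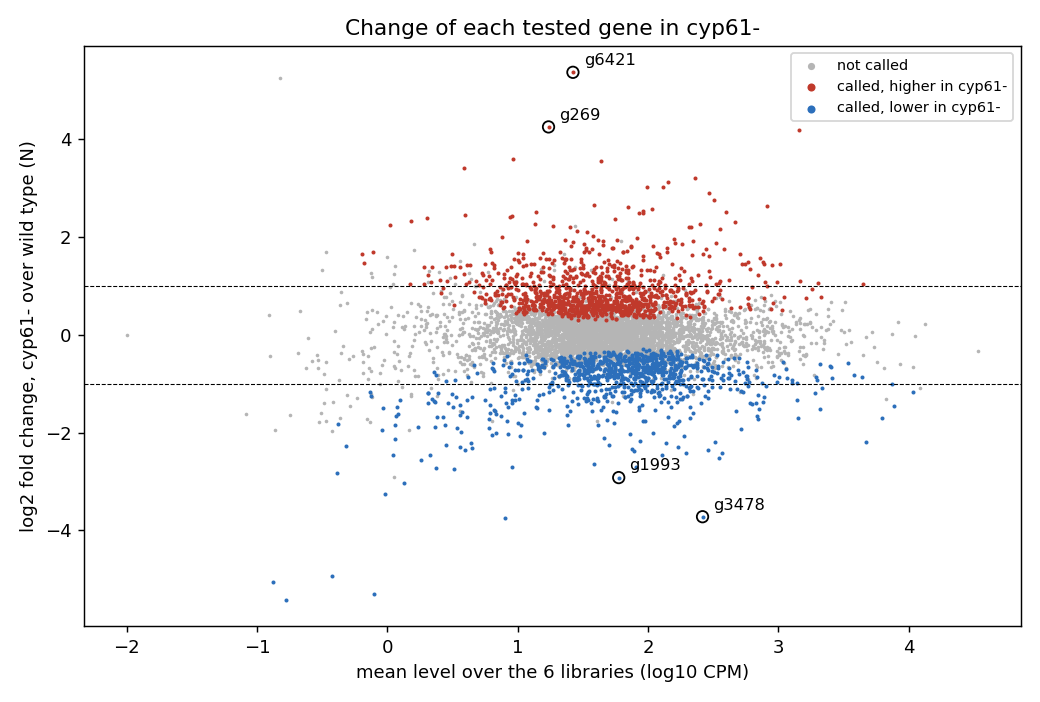
Each point is 1 of the 6228 tested genes, placed by its mean level over the 6 libraries (log10 CPM) and its log2 fold change in cyp61- over wild type (N). Red points were called higher (1047), blue points lower (945), grey points were not called, dashed lines mark 2-fold changes, and the 4 circled genes are named in the text.

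Which direction had more calls depended on the scaling. With DESeq2 size factors in place of TMM, the calls were 951 higher and 1079 lower, and with upper-quartile factors 1173 higher and 790 lower. The number of calls leaned most on the C libraries. It was 1114 without cyp61- C and 1269 without wild type (N) C, and it ran up to 1809 when another of the 6 libraries was left out. Without cyp61- C, the count of genes at least 2-fold higher was 215. The count of 46 changed more than 1.5-fold with any library left out. It was 21, 70 and 7 when cyp61- A, B or C was missing, and 13, 23 and 19 when wild type (N) A, B or C was. It was 137 when the 2 strains were fitted without the other groups. Of the 1047 genes called higher, 480 were called higher in each of the 6 comparisons that leave out a library, and 454 of the 945 called lower stayed lower in each. None was called in the opposite direction in any of them. Since each keeps all the other libraries that made the call, this is no independent support.

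**Figure D2:**
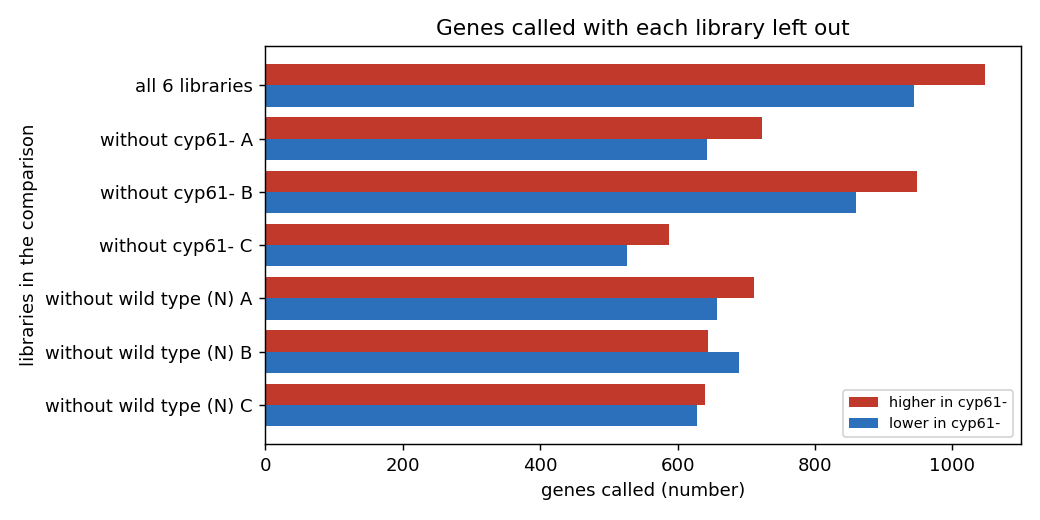
Bars give the number of genes called higher (red) and lower (blue) in cyp61- with all 6 libraries and with each library left out in turn. The bars are shortest without cyp61- C, with 587 genes higher and 527 lower, and change least without cyp61- B, with 949 higher and 860 lower.

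The change moved a sizeable part of the transcript pool. Genes called higher held 14.6%, 13.1% and 17.1% of all counts in cyp61- A, B and C, against 6.84%, 7.02% and 6.68% in wild type (N) A, B and C. Genes called lower held 13.3%, 14.8% and 12.5% of counts in the mutant, against 25.8%, 23.8% and 23.8% in the wild type. These shares describe the genes chosen by the same comparison and are no further test. The sets came from different levels. Genes at least 2-fold higher had a median of 56.4 CPM in the mutant, against 19.8 CPM in the wild type, whereas genes at least 2-fold lower had a median of 27.2 CPM in the mutant, against 71.0 CPM in the wild type. Over all tested genes the median was 45.1 CPM in the mutant and 44.1 CPM in the wild type.

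To describe single genes, a stricter rule was used. A gene had to be called with at least a 2-fold change, average at least 10 CPM over the 6 libraries and have all 3 libraries of one strain above all 3 of the other. It also had to be called in every comparison that leaves out a library and with the 2 strains fitted alone. The rule kept 197 higher genes, with a median log2 fold change of 1.39, and 170 lower genes, with a median size of 1.28. Without overlap between the libraries of the strains were 29.6% of all tested genes on the higher side and 28.1% on the lower side. Since the tables hold no gene names, the 2 genes of largest change per direction are given by identifier and the others by rank.

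Both named higher genes were almost silent in wild type (N). Gene g6421 on contig 10 reached 44.1, 14.7 and 96.2 CPM in cyp61- A, B and C, against 1.20, 1.27 and 1.24 CPM in wild type (N) A, B and C. The mutant libraries lay far above the wild-type ones but differed several-fold among themselves. The log2 fold change was 5.37 ± 1.21 (SE, n = 3 per strain, edgeR adjusted p = 0.00404), with a 95% interval from 2.83 to 7.92. It was 4.56 without cyp61- C. In wild type (Ne), from the other set of count tables, g6421 had 7.5, 6.0 and 74.3 CPM, the last of them above cyp61- A and B. Against that control the log2 fold change was 0.82 and not called (edgeR adjusted p = 0.477), and against both wild-type sets it was 3.10. In the ranking by level, g6421 stood above 1.70% of tested genes in wild type (N) and above 54.7% in cyp61-.

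Gene g269 on contig 1 had 9.95, 23.59 and 64.54 CPM in cyp61- A, B and C, against 1.32, 2.33 and 1.47 CPM in wild type (N) A, B and C. All mutant libraries were higher, with C the highest again. The log2 fold change was 4.26 ± 0.80 (SE, edgeR adjusted p = 0.00143, interval 2.57 to 5.95). It was 3.28 without cyp61- C and 3.16 against wild type (Ne), and called in both cases.

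The third-ranked higher gene, on contig 3, was the most abundant of the 12 leading ones. It was measured at 2384.3, 2114.6 and 3721.8 CPM in cyp61- A, B and C, against 124.9, 175.2 and 150.0 CPM in wild type (N) A, B and C. Its cyp61- libraries lay closer together than those of g6421 and g269, and its log2 fold change of 4.19 had a standard error of only 0.34 (edgeR adjusted p = 4.35e-06). The fifth-ranked gene, on contig 0, had 386.9, 293.4 and 553.1 CPM in the mutant, against 41.8, 48.0 and 42.7 CPM in the wild type. The genes at rank 10 and 11, on contigs 1 and 0, had similarly small errors, with log2 fold changes of 2.76 ± 0.27 and 2.64 ± 0.28 (SE). Over the 12 leading higher genes, log2 fold changes ran from 2.61 to 5.37 and edgeR adjusted p from 4.35e-06 to 0.00852. They lay on 4 contigs, 5 of them on contig 3. The genes at rank 6 and 12 there bear consecutive numbers. In 11 of the 12, cyp61- C was the highest library of its strain. In wild type (Ne), the gene at rank 3 lay below every cyp61- library, at 243.0, 227.0 and 97.3 CPM. Of the 12, only the genes at rank 1, 4, 8 and 9 did not. Those at rank 4 and 9 had 234.4 and 979.8 CPM in wild type (Ne) C, above every cyp61- library. The gene at rank 8 had 122.1 CPM there, above the 96.2 CPM of cyp61- B.

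The 12 leading lower genes averaged 10.7 to 116 CPM in cyp61-, against 66.6 to 621 CPM in wild type (N). Gene g3478 on contig 0 had 37.1, 48.6 and 24.7 CPM in cyp61- A, B and C, against 596.0, 365.7 and 495.9 CPM in wild type (N) A, B and C. The strains did not overlap, and g3478 stood above 42.6% of tested genes in the mutant and above 95.1% in the wild type. Its log2 fold change was -3.72 ± 0.84 (SE, edgeR adjusted p = 0.00411, interval -5.49 to -1.95).

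Gene g1993 on contig 5 had 11.97, 19.14 and 10.56 CPM in cyp61- A, B and C, against 166.7, 63.8 and 85.2 CPM in wild type (N) A, B and C. All mutant values lay below the lowest wild-type value, and wild type (N) A was well above the other 2. The log2 fold change was -2.92 ± 0.41 (SE, edgeR adjusted p = 0.000205). Against wild type (Ne), where g1993 had 15.8, 37.0 and 12.7 CPM, it was -0.66 and not called (edgeR adjusted p = 0.169), and against both wild-type sets it was -1.79. The fourth-ranked lower gene, on contig 1, was the most even in the mutant, at 10.3, 11.4 and 10.4 CPM in cyp61- against 84.8, 51.7 and 63.4 CPM in wild type (N). The seventh, on contig 6, had the highest wild-type level of the 12, with 98.3, 177.8 and 71.6 CPM in the mutant against 727.6, 591.4 and 543.1 CPM in the wild type. Over the 12, log2 fold changes ran from -3.72 to -2.30 and edgeR adjusted p from 4.11e-05 to 0.0046. They lay on 7 contigs, and cyp61- C was the lowest mutant library in 10 of the 12. Wild type (Ne) did not match wild type (N) for most of the 12. Every wild type (Ne) library lay above every cyp61- library only for the genes at rank 1, 4 and 9. At all other ranks the libraries of wild type (Ne) and cyp61- overlapped. At rank 8, wild type (Ne) A, B and C had 61.4, 86.4 and 26.3 CPM, against 49.7, 92.3 and 42.1 CPM in cyp61-. In wild type (Ne), the gene at rank 6 had 10.2, 26.8 and 6.6 CPM, against 39.8, 57.4 and 20.4 CPM in cyp61-. Gene g3478 had 624.0, 916.2 and 76.9 CPM in wild type (Ne). Against that control g3478 stayed called lower, at -3.87 on the log2 scale (edgeR adjusted p = 0.00125).

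**Figure D3:**
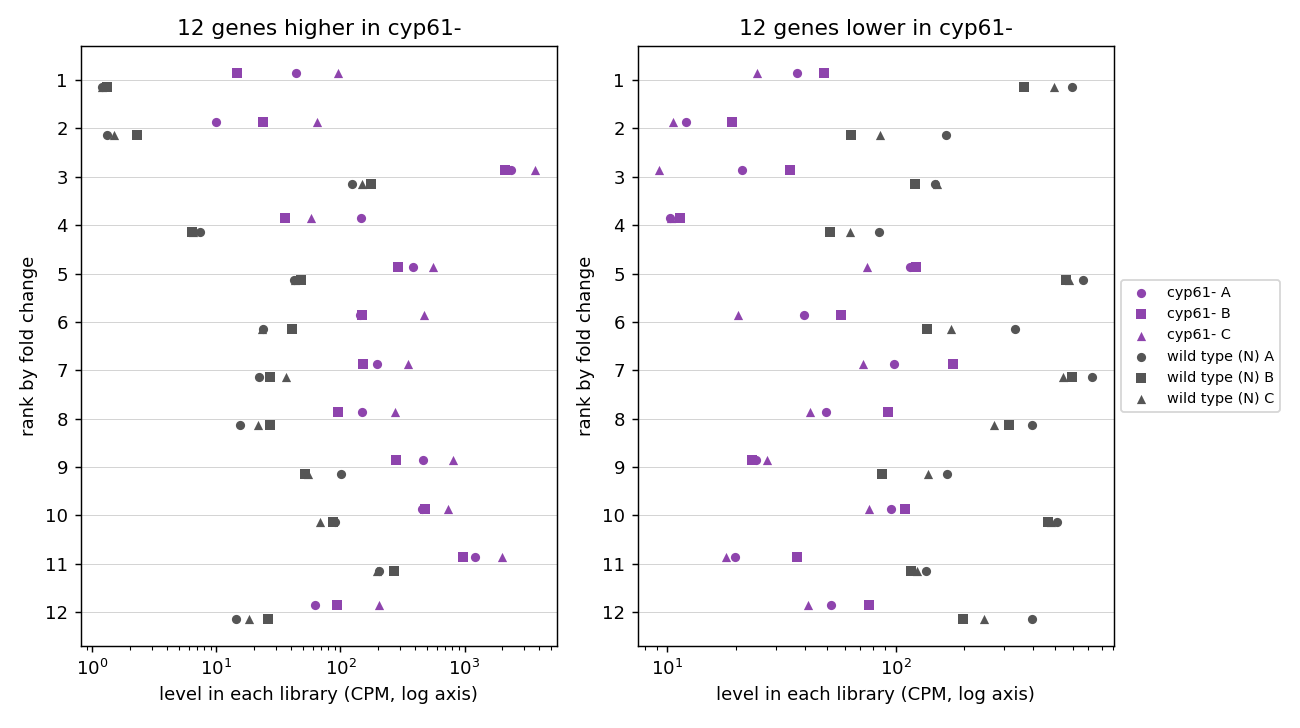
Levels (CPM, log axis) of the 12 leading higher genes (left) and lower genes (right) in each library, by rank of fold change. Purple symbols are cyp61- libraries and grey symbols wild type (N) libraries, with circle, square and triangle for A, B and C. Within each gene the 2 colours do not overlap, which the rule required, and the purple triangle of cyp61- C is the outermost purple symbol in 11 of 12 higher and 10 of 12 lower genes.

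Few genes were near-silent in one strain and clearly present in the other. Under 2 CPM in every wild type (N) library and at least 5 CPM in every cyp61- library were 2 genes, g6421 and a gene on contig 0, which had 10.45, 12.68 and 27.83 CPM in cyp61- against 1.49, 1.77 and 0.90 CPM in wild type (N). In the other direction there were 5 genes, 2 with consecutive numbers on contig 2, 2 on contig 3 and 1 on contig 5, and all 5 were called lower. The largest fall among them was on contig 2, to 0.69, 1.87 and 0.73 CPM in cyp61-, against 17.69, 14.45 and 12.08 CPM in wild type (N). A further pair of genes, on contigs 1 and 3, had 0 counts in all 3 cyp61- libraries. They had 3, 13 and 1 counts and 5, 2 and 6 counts in wild type (N) A, B and C. Both were called lower (edgeR adjusted p = 0.0456 and 0.04). However, a count of 0 in a single library still allows an expected count of up to about 3 there, so no fold change is given for these genes. These cut-offs were set after the data were seen.

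The most abundant transcripts were mostly lower or not called. Of the 50 genes with the highest wild-type levels (2150 to 37800 CPM), 1 was called higher, 17 lower and 32 were not called. Of the 50 highest in cyp61-, 6 were called higher and 7 lower, and the lists had 38 genes in common. Choosing by the level in one strain favours genes that are higher there, so the 50 of highest mean over the 6 libraries give the fairer count, with 2 higher and 13 lower. The top gene by that mean, on contig 0, had 24075, 42113 and 23663 CPM in cyp61-, against 38864, 34508 and 40173 CPM in wild type (N). Its libraries overlapped and it was not called (edgeR adjusted p = 0.378). The ninth, on contig 10, did not overlap, with 3996, 4243 and 4084 CPM in cyp61- against 11871, 9509 and 12333 CPM in wild type (N). Its log2 fold change was -1.45 with a standard error of 0.35 (edgeR adjusted p = 0.00665). The 100 most abundant genes of each library held 33.8% to 38.5% of counts in cyp61- and 39.3% to 41.9% in wild type (N).

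Higher calls outnumbered lower ones at low and middle levels, and lower calls were more frequent at high levels. The tested genes were split into 5 equal groups by mean level over the 6 libraries. The lowest group had 226 genes called higher and 147 lower, the second 238 and 131, and the third 221 and 169. The fourth had 214 higher and 236 lower, and the highest 148 higher and 262 lower. The share called in either direction varied less, from 29.6% to 36.1%. The median standard error was 0.25 in the lowest group and 0.17 to 0.20 in the others, so precision was poorer mainly at the bottom.

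Called genes were spread over the whole genome. On the 11 large contigs, numbered 0 to 10, the share of tested genes called ran from 28.2% on contig 5 to 40.3% on contig 8, around the 32.0% of all. Contig 8 had 76 higher and 76 lower calls among 377 tested genes. Contig 6 had 89 higher and 53 lower among 491, and contig 3 had 143 higher and 95 lower among 715. The 11 small contigs hold 57 genes, of which 3 were tested and none called.

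**Figure D4:**
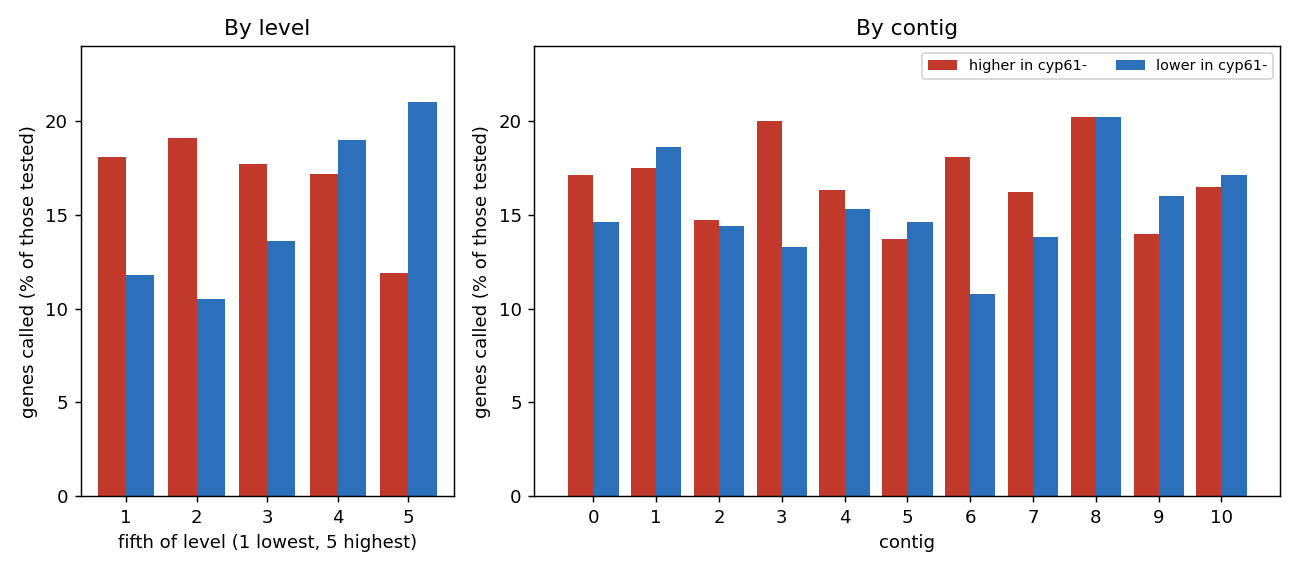
Percentage of tested genes called higher (red) and lower (blue) in cyp61-, by mean level in 5 groups of equal size (left) and by large contig (right). Higher calls run from 19.1% in the second group to 11.9% in the highest, lower calls from 10.5% in the second group to 21.0% in the highest, while every large contig holds calls of both directions.

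Genes with consecutive numbers tended to move alike. Over 6140 pairs of tested genes next to each other by number on a contig, 21.8% of the neighbours of a higher gene were higher too, against 16.9% of all neighbours. For lower genes, 23.1% of neighbours were lower, against 15.0% of all. Neighbours of opposite direction were fewer, with 10.6% of the neighbours of higher genes being lower. For changes of at least 2-fold, 10.3% of the neighbours of higher genes were higher, against 5.21% of all neighbours, and 10.4% of the neighbours of lower genes were lower, against 4.54%. The longest unbroken run was 5 higher genes on contig 8, with log2 fold changes of 0.53 to 1.26, and runs of lower genes reached 4. The sources used here do not say whether consecutive numbers mean adjacent positions or whether counting used strand, and reads shared by overlapping genes cannot be told apart from separate changes.

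A large share of genes was steady within the error of the comparison. For 4182 genes (67.1% of those tested), the 95% interval of the fold change lay inside 2-fold in either direction, and 3569 of these were not called. A further 667 genes that were not called had intervals reaching past 2-fold, so for these a change of that size was not excluded. In the highest of the 5 level groups, 689 genes (55.3%) were not called and had an interval inside 2-fold.

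The mutant libraries differed among themselves more than those of wild type (N). The biological coefficient of variation, the spread between replicates beyond counting error, was 17.8% in cyp61- and 11.7% in wild type (N). Among the other groups of the common fit, it was 27.7% in wild type (Ne), 25.3% in sre1-, 17.6% in the tagged strain and 16.4% in the double mutant. Levels ranged over 2-fold between the 3 libraries for 230 genes in cyp61- (3.69%) and for 51 in wild type (N) (0.819%). Library C of cyp61- lay farthest from the wild type, with Spearman correlations across genes of 0.902 to 0.911 to the wild type (N) libraries, against 0.924 to 0.936 for A and 0.939 to 0.947 for B. Among the 323 genes at least 2-fold higher, C was the highest mutant library in 229 (70.9%), against 33.9% of the genes not called. Among the 293 at least 2-fold lower, it was the lowest in 193 (65.9%), against 33.2%. Their median change from the wild-type mean, on the log2(CPM + 1) scale, was 1.21 in cyp61- A, 1.08 in B and 1.44 in C for the higher set, and -1.22, -1.02 and -1.43 for the lower set. The median direction was common to all 3 libraries, which the choice of these genes by the same libraries favours, and the size differed. What sets C apart was not tested.

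Levels of these gene sets were then followed in the other strains. The 323 higher genes had medians of 52.9, 45.9 and 63.6 CPM in cyp61- A, B and C, 54.6, 55.9 and 59.0 CPM in the tagged strain, 28.8, 23.8 and 23.0 CPM in the double mutant and 19.5, 20.0 and 20.4 CPM in wild type (N). The 293 lower genes had medians of 26.3, 32.2 and 23.4 CPM in cyp61-, 22.6, 21.2 and 22.6 CPM in the tagged strain, 49.3, 58.2 and 64.0 CPM in the double mutant and 76.4, 67.5 and 73.7 CPM in wild type (N). The tagged strain thus lay close to cyp61- for both sets, and the double mutant lay between cyp61- and wild type (N). Both sets were chosen by the difference between cyp61- and wild type (N), which favours a place between them for any other strain. Genes not called had medians of 41.9 to 44.6 CPM in all 12 of these libraries.

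**Figure D5:**
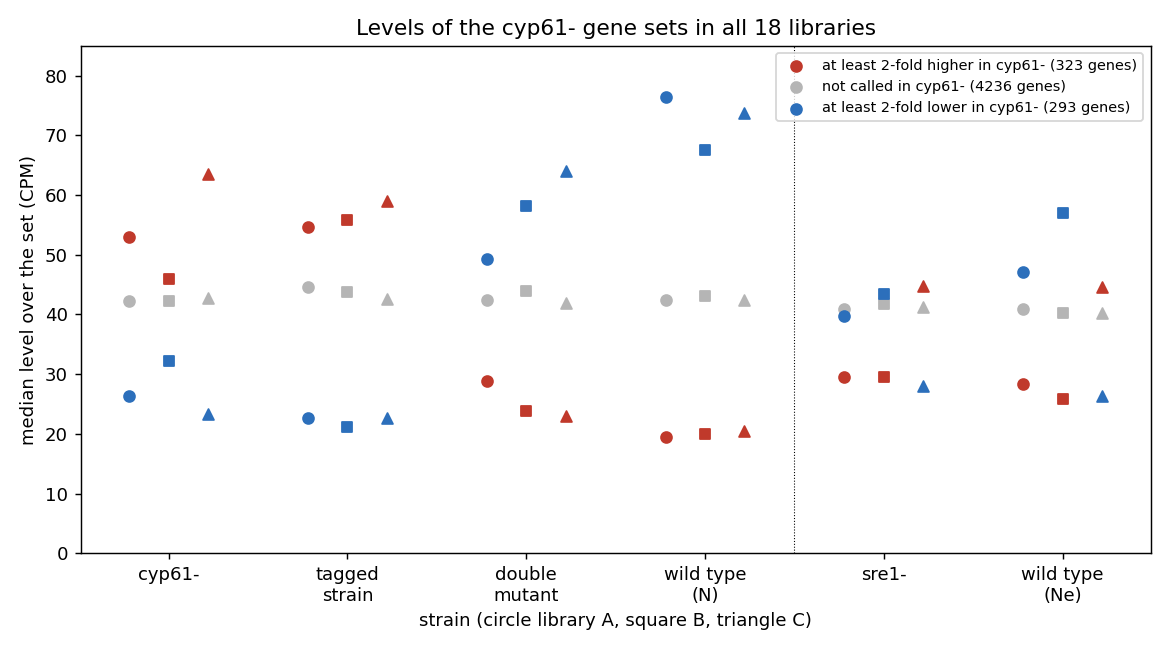
Median level (CPM) of the genes at least 2-fold higher in cyp61- (red, 323 genes), at least 2-fold lower (blue, 293 genes) and not called (grey, 4236 genes) in each of the 18 libraries, by strain. Red lies above blue in cyp61- and the tagged strain and below it in the double mutant and wild type (N). The dotted line parts the strains whose tables were made from paired, trimmed reads, on the left, from the other set, where the C libraries differ from A and B.

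The tagged strain against the double mutant is a comparison that shares no library with cyp61- against wild type (N) and lies in the same set of count tables. It called 29.7% of all tested genes higher and 27.7% lower. Of the 1047 genes higher in cyp61-, 575 (54.9%) were higher there and 96 (9.17%) lower, and of the 945 lower genes 557 (58.9%) were lower and 62 (6.56%) higher. Conversely, the 575 made up 31.1% of all genes called higher there, and the 557 made up 32.3% of those called lower. Of the 4236 genes not called in cyp61-, 28.6% were higher and 25.4% lower. Calls of the same direction numbered 1132 in all, 637 without cyp61- C and 741 without wild type (N) C. The double mutant lacks SRE1 and has CYP61 interrupted, while the tagged strain has a tagged Sre1 and the labels do not give the state of its CYP61 locus. Effects of SRE1, of the tag and, if the locus is intact in the tagged strain, of CYP61 cannot be told apart in this comparison.

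Against wild type (N), the double mutant had 14 genes called higher (0.225%) and 34 lower (0.546%). The 2 comparisons share the wild type (N) libraries, so values are only set side by side. The median log2 fold change over the 323 genes was 1.34 in cyp61- and 0.31 in the double mutant, and over the 293 genes it was -1.33 and -0.37. Among the 12 leading higher genes, log2 fold changes in the double mutant ran from -1.80 to 1.10. The genes at rank 3 and 5 were called lower there than in wild type (N), at -1.80 ± 0.31 and -1.28 ± 0.27 (SE, edgeR adjusted p = 0.0111 and 0.0294). In the double mutant A, B and C, the rank 3 gene had 48.7, 37.3 and 43.0 CPM and the rank 5 gene 18.3, 17.0 and 19.3 CPM, below every wild type (N) library. Gene g6421 was at 2.12, 2.38 and 1.35 CPM and g3478 at 130.4, 133.1 and 299.8 CPM in the double mutant, and neither was called against wild type (N) (edgeR adjusted p = 0.85 and 0.433).

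Few genes were called between sre1- and wild type (Ne), and most of these were also called in cyp61-, in the opposite direction. In sre1- against wild type (Ne), which shares no library with the CYP61 comparison, 0.177% of tested genes were called lower and 0.0482% higher. Of its 11 lower genes, 9 (81.8%) were among the 1047 higher in cyp61-, where they made up 0.86%, and of its 3 higher genes 2 were among the 945 lower in cyp61-. The genes at rank 3 and 5 were among the 9, with log2 fold changes of -1.93 ± 0.31 and -1.47 ± 0.27 in sre1- (SE, edgeR adjusted p = 0.0175 and 0.0259). These 11 genes of opposite direction became 6 without any 1 wild type (N) library, 7 without cyp61- A, 2, 3 and 20 without wild type (Ne) A, B and C, and 2, 2 and 4 without sre1- A, B and C. When each fit held no strains but its own pair, 1 such gene was found.

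Whether interrupting CYP61 had another effect with SRE1 present than without it was tested as a difference of differences, cyp61- minus the double mutant, less wild type (Ne) minus sre1-. Each difference lies inside 1 set of count tables. It was called for 333 of the tested genes (5.35%). The 12 leading higher genes had 7 such calls and the 12 leading lower genes also 7, and since the cyp61- libraries chose these genes and enter this test too, the counts describe them only. For the rank 3 gene the difference was 4.06 ± 0.45 on the log2 scale (SE, edgeR adjusted p = 0.000391), with 48.9, 41.3 and 58.4 CPM in sre1- A, B and C against 243.0, 227.0 and 97.3 CPM in wild type (Ne). For the seventh-ranked lower gene it was -2.56 ± 0.52 (SE, edgeR adjusted p = 0.0171), with 598.7, 570.0 and 671.2 CPM in the double mutant, which overlaps its wild type (N) range.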

How the data were processed

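The authors deposited total counts of reads per gene for each RNA-seq library, without normalization, per the file headers, with each gene placed on a contig of the assembly QXden1.PacBioOnly. The headers for cyp61-, wild type (N), the tagged strain and the double mutant describe paired, trimmed reads, and those of wild type (Ne) and sre1- do not. These form 2 sets of count tables, and the comparison of cyp61- with wild type (N) lies inside one. The column headers of wild type (Ne) lack its suffix, so its table was matched to the labels by the name under which it was deposited. The submitters' processing notes list Bowtie2 2.3.5.1, SAMtools, DESeq2 and edgeR, with no role given. For the gene models and the use of strand, nothing is stated in the sources used here. ChIP-exo peak lists were not used.

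The counts entered edgeR 4.0.16 unchanged (with limma 3.58.1 under R 4.3.3). Genes were filtered with filterByExpr, libraries scaled by TMM, and a quasi-likelihood model with group as the only term was fitted to all 18 libraries. A standard error is the absolute log2 fold change divided by the root of its F statistic. The procedure was tested on simulated data. Genes were named by the rule given in the text, at most 2 per direction. Alternatives were DESeq2 1.42.0, other scalings, filters, groups in the fit and controls, a replicate block and each library left out. The labels do not say whether the replicate letters pair the libraries, and the main fit did not treat them as pairs. Members, lists and thresholds were chosen with earlier results of these data known.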

Additional observations from a re-analysis of the deposited data

Results flagged for a closer look

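For 2 of the 4 named genes the test of a difference in the CYP61 effect with and without SRE1 passed its threshold. These genes were chosen as extremes of cyp61- against wild type (N), and the same cyp61- libraries enter this test, so its values describe them and are not independent support. The test was the contrast of cyp61- minus double mutant less wild type (Ne) minus sre1-, in which each difference lies inside 1 set of count tables, and it called 5.35% of all genes tested. For g6421 the difference was 5.24 with an SE of 1.46 on the log2 scale (edgeR adjusted p = 0.0474), with 44.1, 14.7 and 96.2 CPM in cyp61- A, B and C against 2.12, 2.38 and 1.35 CPM in the double mutant, and 8.3, 11.3 and 107.5 CPM in sre1- against 7.5, 6.0 and 74.3 CPM in wild type (Ne). For g1993 it was -2.14 ± 0.55 (SE, edgeR adjusted p = 0.0387), with 11.97, 19.14 and 10.56 CPM in cyp61- against 47.4, 62.9 and 69.9 CPM in the double mutant, and 19.4, 28.8 and 15.9 CPM in sre1- against 15.8, 37.0 and 12.7 CPM in wild type (Ne). For g269 and g3478 the adjusted p was 0.07 and 0.118, which does not show that their effects are alike.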

How the results depend on the processing

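The 4 named genes kept their direction and call under every alternative run, except that g6421 (0.82 on the log2 scale, adjusted p = 0.477) and g1993 (-0.66, adjusted p = 0.169) were not called against wild type (Ne), a control from the other set of count tables. The naming rule itself required the call with each of the 6 libraries left out and with the 2 strains fitted alone. Those alternatives are therefore no test of these genes. With that control 3248 genes were called, 550 at least 2-fold higher, 621 at least 2-fold lower and 238 past 2-fold by test. The genes past 2-fold by test, 46 in the report, were 137 with the 2 strains fitted alone, 123 with the 12 libraries of one set, 126 with the replicate block and the 2 strains alone, and 134 with the block by letter within the set in all libraries. The cause of these shifts was not tested. The genes of opposite direction in sre1- against wild type (Ne) were 1 with only the groups compared. Same-letter libraries of cyp61- and wild type (N) did not deviate together (correlations -0.26, -0.14 and -0.22 for A, B and C). Libraries of different letters had correlations of 0.03 to 0.28. With 3 libraries per strain, these values cannot decide whether the letters are pairs, and the labels do not say. With the replicate block and the 2 strains alone, 2371 genes were called, against 2929 without the block. Leaving out 1 library at a time gave 1114 to 1809 genes called, 215 to 347 at least 2-fold higher, 203 to 361 at least 2-fold lower, 7 to 70 past 2-fold by test, 637 to 1172 shared with the tagged strain against the double mutant, and 2 to 20 of opposite direction in sre1-. The counts for sre1- were not run with wild type (Ne) as a control, where both comparisons would share it, or in the set that lacks sre1-. DESeq2 called 2269 genes, 31 of them past 2-fold by test. The median standard error was 0.25 in the lowest of the 5 level groups and 0.17 to 0.20 in the others, and the part of depth in this was not tested.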

Other observations

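Genes that changed in cyp61- also varied together between libraries of strains with an intact CYP61. In wild type (Ne), whose libraries do not enter the comparison with wild type (N), the genes at least 2-fold higher in cyp61- had medians of 28.4, 25.8 and 44.6 CPM in libraries A, B and C, and those at least 2-fold lower had medians of 47.2, 57.0 and 26.3 CPM. Library C was the highest of the 3 for 263 of the 323 higher genes (81.4%), against 42.7% of the genes not called in cyp61-, and the lowest for 241 of the 293 lower genes (82.3%), against 42.8%. In sre1- the picture was alike, with medians of 29.6, 29.5 and 44.7 CPM for the higher set and 39.8, 43.4 and 28.0 CPM for the lower set, and C highest for 78.3% and lowest for 77.5%. Genes not called had medians of 40.3 to 41.8 CPM in these 6 libraries. The wild-type library C of that set therefore stood as low as cyp61- A, at 26.3 CPM, for the genes lower in cyp61-. In wild type (N), library C did not stand apart in this way, being highest for 30.0% of the higher genes and lowest for 28.0% of the lower genes. For the lower genes, wild type (N) A was the highest for 48.5% and B the lowest for 41.6%, against 38.4% and 26.3% of the genes not called. The wild type (N) libraries took part in choosing these genes, which favours little spread there. In the double mutant, library A was the highest for 195 of the 323 higher genes (60.4%) and the lowest for 170 of the 293 lower genes (58.0%), against 20.3% and 20.9% of the genes not called. What differs between these libraries was not tested, and no label sets them apart beyond their letter.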
